A study of Mus musculus with 14 samples.

Results

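The antiviral effectors of the OAS, IFIT and Mx families, together with viperin, were described in mouse brain as a set of 10 genes chosen by symbol: the oligoadenylate synthetases Oas1a, Oas2 and Oas3, the synthetase-like genes Oasl1 and Oasl2, the tetratricopeptide genes Ifit1, Ifit2 and Ifit3, the GTPase Mx1 and viperin (Rsad2). Of these, 9 were among the 13866 genes of the count table. Oas1a was not listed, and Oas2 was listed but did not pass the filter on low counts, so that 8 were tested among 11852 genes.

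Brain RNA was sequenced from mice of 19 days in 4 groups, with 1 library per mouse. WT mice were C57BL/6JOlaHsd. MyTrMaSt null mice lack Myd88, Trif (Ticam1), Mavs and Tmem173 (STING), the adaptors of the Toll-like receptor, RIG-I-like receptor and STING pathways, in every cell. From day 8 the mice received daily intraperitoneal injections of PBS or of 100 mg/kg CBE (conduritol B-epoxide), which blocks acid beta-glucosidase irreversibly and is used as a chemical model of neuronopathic Gaucher disease, which gave WT + PBS (n = 3), WT + CBE (n = 3), MyTrMaSt + PBS (n = 3) and MyTrMaSt + CBE (n = 5).

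The libraries were of the MARSseq type, which counts transcript 3′ ends, so that levels are not given per length and are compared within a gene only. Levels are CPM, the counts scaled to a common library size after TMM correction. The libraries held 1290616 to 3704691 counts. The shallowest, WT + PBS replicate 1, stood apart from the other libraries of its group, and the counts of calls below were also made without it, for the lists of other genes as a choice made after seeing the data. The labels do not give the sex of the mice. Xist, which is transcribed from the inactive X chromosome of female cells, was at 0 in all 3 WT + PBS libraries, in MyTrMaSt + CBE replicate 4 and nearly so in WT + CBE replicate 2 (0.468 CPM), and stood between 7.02 and 18.0 CPM in the other 9. Of the 4 deleted genes, Myd88 was lower in MyTrMaSt + CBE than in WT + CBE (log2 fold change -1.77 ± 0.26 SE), while Tmem173 was at 0.899 to 2.48 CPM in WT + PBS and at 5.0 to 7.02 CPM in MyTrMaSt + PBS (1.62 ± 0.39, adjusted p = 0.101), higher where it is deleted. Ticam1 and Mavs were not called, and none of the 4 was at 0 in all libraries of a group. Where the deletions lie relative to the counted 3′ ends was not given in the sources used here, so these counts do not check the genotype. In bulk tissue, fewer cells of a type and less RNA per cell cannot be told apart.

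Type I interferon binds a surface receptor whose kinases activate transcription factors of the STAT family, among them STAT2, which joins IRF9 and binds a promoter element called the interferon-stimulated response element. The effectors described here are among the genes that this signal induces. OAS enzymes bind double-stranded RNA and make 2′-5′-linked oligoadenylates, which lead to the decay of RNA in infected cells. IFIT proteins bind viral RNA and translation factors, Mx proteins are dynamin-like GTPases that trap viral nucleocapsids, and viperin is a radical SAM enzyme that makes a chain-terminating nucleotide.

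The genes lie in compact clusters (positions are in GRCm38, the mm10 build, from the GENCODE M21 annotation). Oasl2 (chr5:114896936-114912234) and Oasl1 (chr5:114923240-114937915) are neighbours on the plus strand. Oas2 (chr5:120730333-120749853), Oas3 (chr5:120753098-120777661) and Oas1a (chr5:120896256-120907521) are on the minus strand of the same chromosome, in a cluster of 177.2 kb that also holds the relatives Oas1c and Oas1b. Ifit2 (chr19:34550694-34576419), Ifit3 (chr19:34583531-34588731) and Ifit1 (chr19:34640871-34650009) are on the plus strand within 99.3 kb, with the relatives Ifit1bl1 and Ifit3b between them. Mx1 is at chr16:97447035-97462907 on the minus strand, and Rsad2 at chr12:26442746-26456452 on the minus strand. No exon of another gene overlapped an exon of a member except for 38 bases that Oasl1 shares with the antisense gene Gm13822, which was not among the tested genes.

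A promoter window of 250 bases before to 50 after a transcript start (RefSeq, GRCm38.p6) was given for 8 of the 10 genes. An interferon-stimulated response element core, GAAA followed by 2 bases of any kind and GAAA, was searched on both strands. It was found in the windows of 5 of the 8 genes, against 3.44% of all 32851 windows. The stretches with their matches are written 5′ to 3′ along each gene's own strand, because they are a sequence feature shared by 5 of the 8 genes with a window, which the choice of the set did not use. Capitals mark the match. TTTC followed by 2 bases and TTTC is the same core on the other strand.
Oas1a (chr5:120907526-120907565, minus strand): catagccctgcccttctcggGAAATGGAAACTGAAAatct
Oas3 (chr5:120777705-120777754, minus strand): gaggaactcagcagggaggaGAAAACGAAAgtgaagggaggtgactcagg
Ifit1 (chr19:34640765-34640833, plus strand): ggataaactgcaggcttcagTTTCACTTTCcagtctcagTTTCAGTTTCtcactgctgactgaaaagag
Ifit3 (chr19:34583353-34583436, plus strand): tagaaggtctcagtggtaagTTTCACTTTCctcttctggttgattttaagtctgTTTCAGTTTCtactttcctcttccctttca
Rsad2 (chr12:26456543-26456592, minus strand): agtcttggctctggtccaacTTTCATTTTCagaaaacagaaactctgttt
Oas1a has 2 overlapping matches that end 5 bases before the start. Ifit1 and Ifit3 have 2 matches each, and the upstream match has the same 10 bases in both genes, as has the downstream one. In Oas3 the match lies 75 to 66 bases before the start, and in Rsad2 120 to 111 bases before it. No match was found in the windows of Oasl1, Oasl2 and Ifit2, which says only that these letters are not there. The STAT dimer motif TTCNNNGAA was found in the windows of Oas1a and Ifit2, against 8.3% of all windows.

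In WT brain, every tested effector was higher with CBE than with PBS. The summed level of the 9 listed genes was 26.9 ± 9.35 CPM (SD, n = 3) in WT + PBS and 516 ± 82.3 CPM (n = 3) in WT + CBE. In MyTrMaSt brain the sum was 14.9 ± 3.10 CPM (n = 3) with PBS and 15 ± 5.42 CPM (n = 5) with CBE. All 8 tested genes were called higher with CBE in WT mice (at least 2-fold with an adjusted p under 0.05, edgeR's quasi-likelihood test with Benjamini-Hochberg adjustment), where 5.2% of all tested genes were called higher. The lowest WT + CBE library exceeded the highest WT + PBS library for each of the 8, which held for 15.1% of all tested genes. In MyTrMaSt mice none of the 8 was called with CBE, where 3.23% of all tested genes were called higher and 0.658% lower. Oas3, Oasl1, Mx1 and Rsad2 reached 10 counts in no library outside WT + CBE, so that they passed the filter only through the group in which they were high. The filter asks for 3 libraries, and Ifit1, with 2 outside WT + CBE, passed only with that group as well. The shares of tested genes above are therefore descriptions. Xist was at 0 in WT + PBS and at 0.468 to 18.0 CPM in WT + CBE, and it was called higher there (adjusted p = 0.0138). By this marker, sex and CBE partly coincide in WT mice. The part of sex was not tested beyond a fit with Xist as a covariate, in which the 8 were still called.

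**Figure D1:**
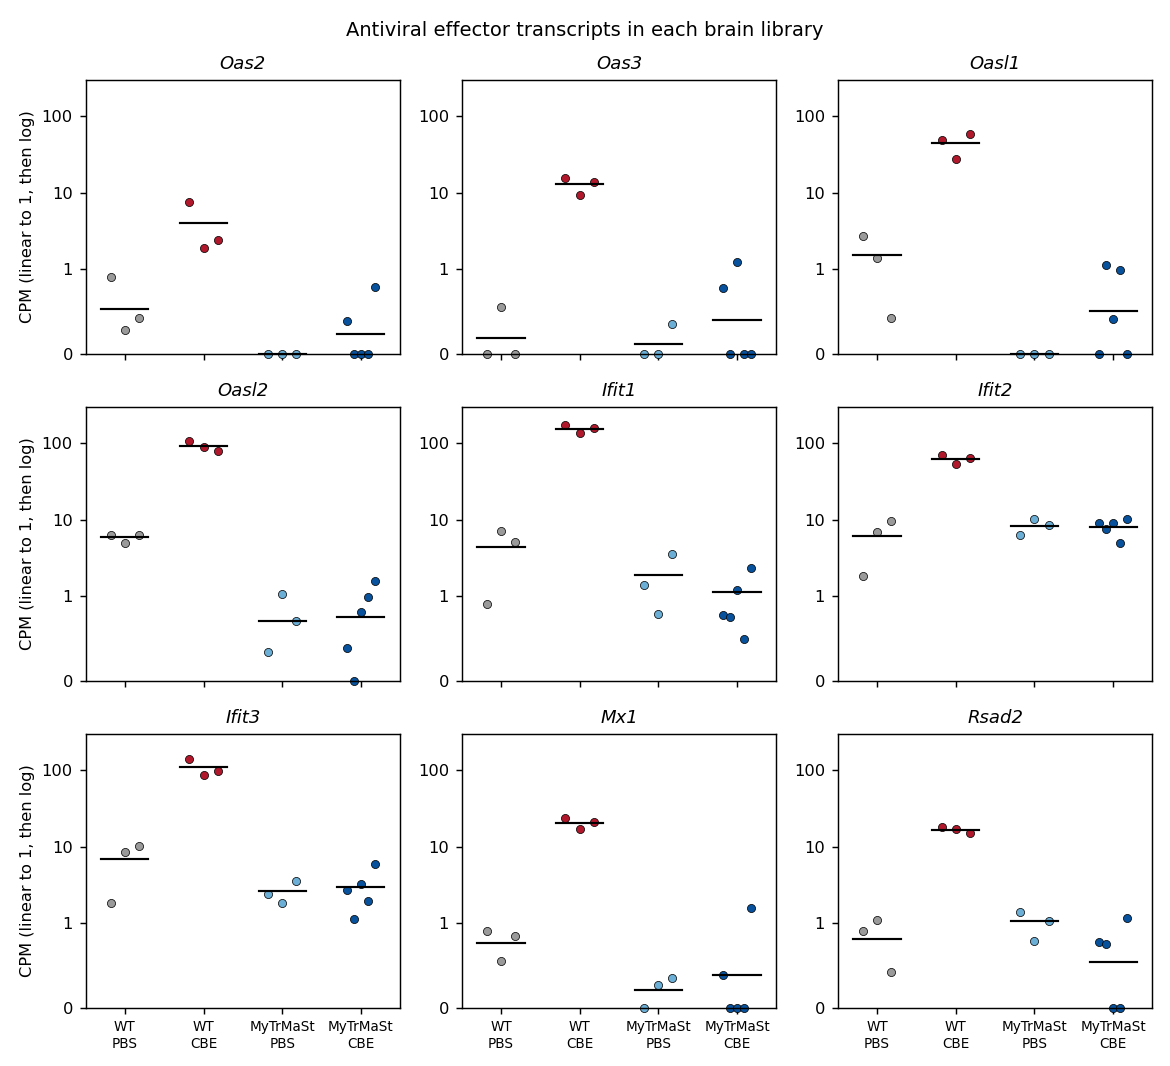
Level of each listed effector in CPM (vertical axis, linear from 0 to 1 and logarithmic above) in the 14 libraries, by group; points are libraries and bars are group means. The WT + CBE libraries stand above every other library for all 9 genes, and the MyTrMaSt + CBE libraries lie in or near the range of the PBS groups.

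Oas2 encodes the synthetase with a pair of catalytic-type units. It had 1 count in each WT + PBS library and 26, 4 and 4 counts in the WT + CBE libraries, which were 7.54, 1.87 and 2.40 CPM. In MyTrMaSt + PBS it was at 0 in all 3 libraries, and in MyTrMaSt + CBE it had 1, 0, 0, 0 and 2 counts. The WT + CBE libraries did not overlap any other group, and replicate 1 held most of their counts. Pooled over libraries, the level of Oas2 with CBE was 11.1 times that with PBS in WT mice (34 against 3 counts, 95% counting interval 3.5 to 56.6). Without the filter on low counts Oas2 was also called (log2 fold change 3.21, adjusted p = 0.0215). For MyTrMaSt no fold is given, because both groups held 3 counts or fewer. These intervals cover counting error only.

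Oas3 encodes the largest synthetase, which binds long double-stranded RNA. It had 0, 2 and 0 counts in WT + PBS and stood at 15.7, 9.36 and 13.8 CPM in WT + CBE (54, 20 and 23 counts). MyTrMaSt + PBS had 0, 0 and 1 counts and MyTrMaSt + CBE 2, 0, 3, 0 and 0. Oas3 was thus at or near 0 in the brains of all groups but WT + CBE. Its log2 fold change in WT was 5.33 ± 0.71 (SE, adjusted p = 4.22e-05). With so few control counts the size is uncertain: the pooled ratio was 47.6 with a 95% counting interval of 12.8 to 399, and the fitted log2 fold change was 8.05 without WT + PBS replicate 2, the library that held both control counts. In MyTrMaSt the pooled ratio of CBE to PBS was 3.88 (5 against 1 counts, interval 0.434 to 183).

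Oasl1 and Oasl2 encode synthetase-like proteins with ubiquitin-like domains. Mouse OASL1 lacks synthetase activity and represses translation of the transcription factor IRF7, while mouse OASL2 makes oligoadenylates. Oasl1 stood at 2.70, 1.38 and 0.421 CPM in WT + PBS and at 48.7, 27.6 and 57.7 CPM in WT + CBE. It had no count in MyTrMaSt + PBS and 0, 3, 1, 2 and 0 counts in MyTrMaSt + CBE. In WT its log2 fold change was 5.07 ± 0.50 (adjusted p = 2.97e-06). In MyTrMaSt the 6 counts with CBE stood against 0 with PBS, the lower 95% counting limit of the ratio was 0.913, and the fit gave an adjusted p of 0.206, with a fold change that depends on the prior count and is not read here.

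Oasl2 stood at 6.30, 4.96 and 6.31 CPM in WT + PBS and at 106, 89.3 and 78.7 CPM in WT + CBE. In MyTrMaSt it was at 0.344, 1.05 and 0.702 CPM with PBS and at 0.388, 0, 0.808, 0.981 and 1.56 CPM with CBE. The libraries within each WT group lay close together, and the MyTrMaSt libraries of both treatments were all below the lowest WT + PBS library. The log2 fold change with CBE was 4.00 ± 0.28 in WT (adjusted p = 2.21e-08) and 0.00 ± 0.80 in MyTrMaSt (adjusted p = 1.0), where the 95% interval ran from -1.69 to 1.69.

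Ifit1 encodes a protein that binds capped viral RNA lacking the methylation of host caps. It stood at 0.899, 7.16 and 5.05 CPM in WT + PBS and at 173, 134 and 159 CPM in WT + CBE. In MyTrMaSt it was at 1.38, 0.790 and 3.51 CPM with PBS and at 0.777, 0.749, 1.21, 0.491 and 2.34 CPM with CBE. The log2 fold change was 4.88 ± 0.35 in WT (adjusted p = 2.46e-08) and -0.64 ± 0.62 in MyTrMaSt (adjusted p = 0.565, interval -1.94 to 0.65).

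Ifit2 encodes a binder of AU-rich RNA that also promotes apoptosis. It was at 1.80, 6.89 and 9.67 CPM in WT + PBS and at 69.9, 53.8 and 63.7 CPM in WT + CBE. In MyTrMaSt it was at 6.19, 10.3 and 8.43 CPM with PBS and at 8.93, 7.49, 8.89, 4.91 and 10.1 CPM with CBE. Ifit2 thus had counts in every library, and its MyTrMaSt libraries lay in the range of WT + PBS or just above it. Its log2 fold change was 3.19 ± 0.31 in WT (adjusted p = 8.42e-07), the smallest of the 8 tested genes, and -0.04 ± 0.30 in MyTrMaSt (adjusted p = 0.956). The interval in MyTrMaSt, -0.66 to 0.58, was the narrowest of the set and lay below a 2-fold rise.

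Ifit3 encodes the partner that stabilizes IFIT1 on RNA in human cells. It was at 1.80, 8.54 and 10.1 CPM in WT + PBS and at 139.5, 87.5 and 99.1 CPM in WT + CBE. In MyTrMaSt it was at 2.41, 1.84 and 3.51 CPM with PBS and at 2.72, 1.12, 3.23, 1.96 and 5.85 CPM with CBE. The log2 fold change was 3.82 ± 0.35 in WT (adjusted p = 5.29e-07) and 0.24 ± 0.51 in MyTrMaSt (adjusted p = 0.820). Of the distinct 50-base windows in the last 500 bases of Ifit3 transcripts, 14.9% also occur in Ifit3b, so that part of their reads could not be assigned to either gene by unique mapping.

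Mx1 encodes a nuclear GTPase active against influenza virus, and in C57BL/6 mice the gene carries a deletion that leaves no functional protein. It had 1, 2 and 2 counts in WT + PBS and stood at 23.8, 16.8 and 21 CPM in WT + CBE (82, 36 and 35 counts). MyTrMaSt + PBS had 0, 1 and 1 counts and MyTrMaSt + CBE 1, 0, 0, 0 and 4. The log2 fold change in WT was 4.78 ± 0.54 (adjusted p = 5.81e-06). In MyTrMaSt it was 0.82 ± 1.08 (adjusted p = 0.691) and turned to -0.77 without MyTrMaSt + CBE replicate 5, which held 4 of the 5 counts of its group.

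Rsad2 encodes viperin, a protein of the endoplasmic reticulum and lipid droplets. It was at 0.899, 1.10 and 0.421 CPM in WT + PBS and at 18.0, 16.8 and 15 CPM in WT + CBE, a coefficient of variation of 0.090 that was the lowest of the set in that group. In MyTrMaSt it had 4, 3 and 3 counts with PBS and 2, 2, 0, 0 and 3 counts with CBE. The log2 fold change was 4.24 ± 0.47 in WT (adjusted p = 4.20e-06) and -0.84 ± 0.65 in MyTrMaSt (adjusted p = 0.464).

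**Figure D2:**
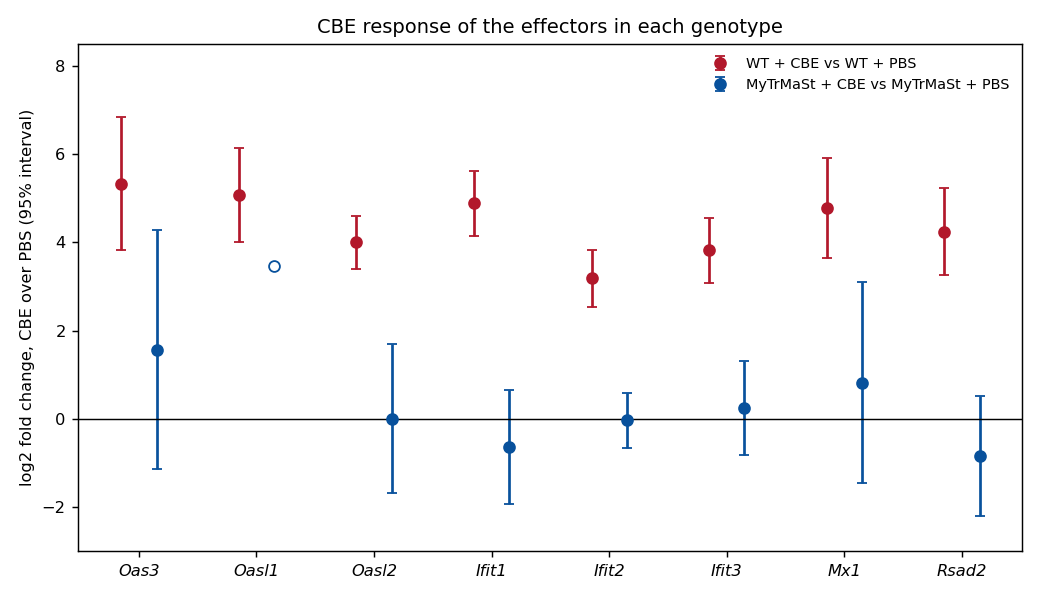
log2 fold change of CBE over PBS (vertical axis) for each tested effector in WT (red) and in MyTrMaSt mice (blue), with 95% intervals from the edgeR fit; the open circle is Oasl1 in MyTrMaSt, whose PBS group had no counts, drawn without an interval. The WT values run from 3.19 to 5.33, and every MyTrMaSt interval drawn includes 0.

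Over the 8 tested genes the WT log2 fold changes ran from 3.19 (Ifit2) to 5.33 (Oas3) with a median of 4.51, against a median of -0.02 over all tested genes. The 95% interval of Ifit2 (2.54 to 3.83) did not overlap those of Ifit1 (4.14 to 5.62) and Oasl1 (4.01 to 6.14), and genes next to each other in this order had overlapping intervals. In MyTrMaSt the 8 values split into 5 above 0, as were 50.5% of all tested genes, and 3 below, with a median of 0.12 against 0.01 over all tested genes. At an unadjusted p under 0.05, 1 of the 8 differed with CBE in MyTrMaSt (Oasl1), against 23.7% of all tested genes, and DESeq2 and limma voom called none. CBE did change gene expression in these mice, with 3.23% of all tested genes called higher and 0.658% called lower.

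Between genotypes under CBE, the 8 tested effectors were all called lower in MyTrMaSt than in WT mice, where 1.93% of all tested genes were called lower. The groups did not overlap for any of the 8, against 6.02% of all tested genes. Oas3, Oasl1, Ifit1, Mx1 and Rsad2 passed the filter only with the WT + CBE libraries, so that a lower level in MyTrMaSt was favoured by the filter and these shares are descriptions. The log2 differences ran from -2.93 ± 0.25 for Ifit2 to -7.04 ± 0.35 for Ifit1, the latter being 7.61e-03 of the WT level, and the adjusted p ran from 1.35e-10 to 1.22e-05. Oasl2 (-6.88 ± 0.31) and Oasl1 (-6.38 ± 0.46) followed Ifit1. Oas2, not tested, had 3 counts over the 5 MyTrMaSt + CBE libraries and 34 over the 3 WT + CBE libraries, which was 19.3-fold higher in WT (95% counting interval 6.06 to 98.0). These comparisons share the WT + CBE libraries with the comparison within WT mice.

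Without CBE, Oasl2 was lower in MyTrMaSt + PBS than in WT + PBS, with a log2 difference of -2.88 ± 0.50 (adjusted p = 0.0237), and it was the only tested effector called, where 0.127% of all tested genes were called lower. At an unadjusted p under 0.05, 4 of the 8 differed, all lower in MyTrMaSt, where 16.8% of all tested genes differed in either direction: Oasl2, Oasl1, Ifit3 (-1.59 ± 0.49, adjusted p = 0.154) and Ifit1 (-1.51 ± 0.52, adjusted p = 0.173). Oasl1, with 9 counts over the WT + PBS libraries and none in MyTrMaSt + PBS, had a MyTrMaSt to WT ratio whose 95% counting interval reached 0.378. Ifit2 (0.29 ± 0.35) and Rsad2 (0.31 ± 0.70) had values above 0, with adjusted p of 0.679 and 0.849, and their intervals of -0.44 to 1.03 and -1.15 to 1.77 allow a 2-fold difference. The groups did not overlap for Oasl1, Oasl2 and Mx1, 3 of the 8, against 10.1% of all tested genes for lower levels.

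**Figure D3:**
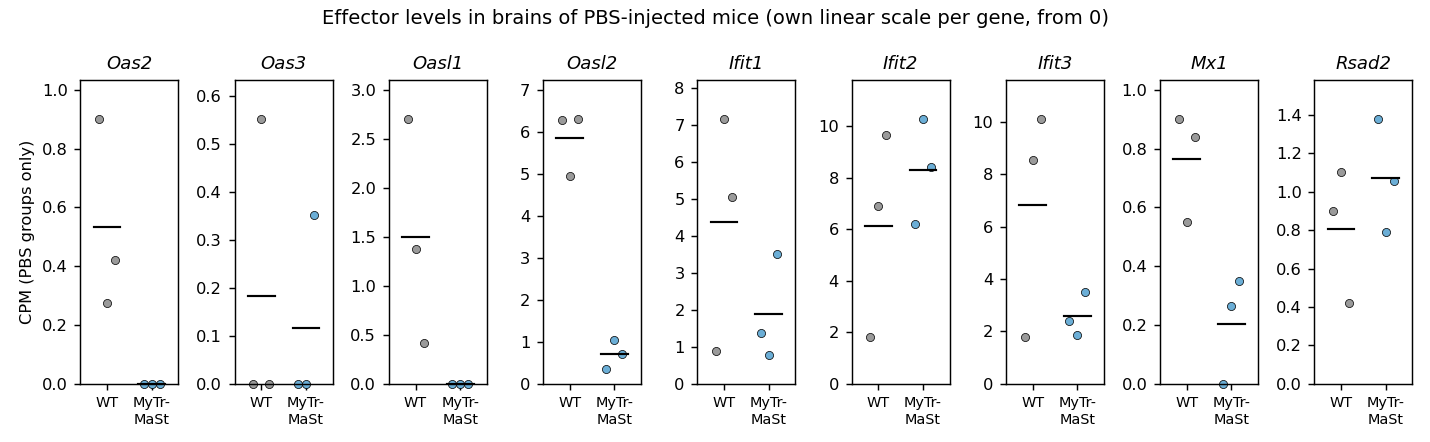
Level in CPM (vertical axis, linear from 0, on a scale of its own for each gene) in the PBS-injected mice of both genotypes; points are libraries and bars are means of 3. Oasl2 stands at 4.96 to 6.31 CPM in WT and 0.344 to 1.05 CPM in MyTrMaSt mice, whereas the groups overlap for Ifit1, Ifit2, Ifit3 and Rsad2.

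The call of Oasl2 was lost without MyTrMaSt + PBS replicate 1 (adjusted p = 0.103), replicate 2 (0.0804) or replicate 3 (0.107), with log2 differences between -2.60 and -3.33, and with limma voom (0.0674), with the replicate number as a block (0.0748) and with the libraries of the 2 groups alone (0.240). DESeq2 called 3 effectors (Oasl1, Oasl2 and Ifit3), among 114 calls over all tested genes. Over all tested genes limma voom called 15, the fit with the block 7 and the fit of the 2 groups alone 4. Without MyTrMaSt + PBS replicate 1, 2 or 3 the calls over all tested genes were 10, 5 and 8. WT + PBS replicate 1 had the lowest level of its group for Ifit1, Ifit2 and Ifit3 and the highest for Oas2, Oasl1 and Mx1, at the depth of 1290616 counts, and without it the differences of Ifit1 and Ifit3 were -1.79 (adjusted p = 0.0953) and -1.86 (adjusted p = 0.0600). Xist was at 0 in all WT + PBS libraries and at 11 to 12.1 CPM in all MyTrMaSt + PBS libraries, so that sex and genotype cannot be told apart in this comparison. Its part in the differences was not tested beyond a fit with Xist as a covariate, in which Oasl2 was at -2.83 with an adjusted p of 0.241.

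The interaction term compares the CBE response between the genotypes directly. It was negative, meaning a smaller response in MyTrMaSt, for all 8 tested effectors (49.9% of all tested genes had a value above 0), and 5 had an adjusted p under 0.05, where 0.413% of all tested genes were called with a negative interaction. These were Ifit1 (-5.53 ± 0.77, adjusted p = 0.00236), Rsad2 (-5.08 ± 0.87, 0.00847), Oasl2 (-4.00 ± 0.84, 0.0406), Ifit3 (-3.58 ± 0.66, 0.0163) and Ifit2 (-3.23 ± 0.43, 0.00138). Oas3, Oasl1, Ifit1, Mx1 and Rsad2 entered the test only with the WT + CBE libraries, which favours a negative value, so that the counts over the 8 genes and the calls of Ifit1 and Rsad2 are descriptions. Oas3 (-3.77, adjusted p = 0.563), Mx1 (-3.96, adjusted p = 0.377) and Oasl1 (-1.60, adjusted p = 0.883) were not called. For Oas3 and Mx1 the PBS groups held 1 to 5 counts each, and for Oasl1 the MyTrMaSt + PBS group held none, so that the size of their interaction was not resolved at this depth. Of the 14 leave-outs of 1 library, 5 gave 5 calls, among them that of WT + PBS replicate 1, and 7 gave 4. Oasl2 lost its call in 9 of the 14, those of each WT + CBE and each MyTrMaSt + PBS library and of MyTrMaSt + CBE replicates 1, 3 and 4 (adjusted p 0.0572 to 0.301). The calls fell to 2 without MyTrMaSt + PBS replicate 1 (Ifit1 and Ifit2), to 1 without MyTrMaSt + PBS replicate 3 (Ifit2), to 3 with counts thinned to the smallest library and to 1 with Xist as a covariate (Ifit1, adjusted p = 0.0234). The interactions that lost their call stayed negative, at -2.74 for Ifit2, -3.14 for Ifit3, -4.05 for Oasl2 and -4.97 for Rsad2 with the covariate, and at -3.38 for Oasl2 and -4.98 for Rsad2 with thinned counts. With that covariate 9 of all tested genes were called, against 58 without it.

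Within the MyTrMaSt + CBE group, replicate 5 had the highest level for Oas2, Oasl2, Ifit1, Ifit2, Ifit3, Mx1 and Rsad2, 7 of the 9 listed genes. Its summed level was 23.4 CPM, and the other 4 libraries lay between 9.32 and 15.8 CPM. The WT + CBE libraries, at 437 to 602 CPM, were far from overlapping with it.

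Relatives of the effectors give the same families more members. Of 12, 6 were listed and tested, and 4 were called higher with CBE in WT mice. The log2 fold change of Oas1b, a synthetase truncated in most laboratory strains, was 4.5 ± 0.61, that of Ifit3b 3.45 ± 0.25, that of Mx2 2.37 ± 0.36 and that of Oas1c 1.53 ± 0.46, although the Oas1c groups overlapped. The filter asks for 3 libraries, and outside WT + CBE it was met by none for Oas1b and Mx2, by 1 for Oas1c and by 2 for Ifit3b, so that all 4 entered the test only with that group and their calls are descriptions. Ifit1bl1 (0.60 ± 0.49, adjusted p = 0.504) and Cmpk2 (0.75 ± 0.28, adjusted p = 0.0929), the mitochondrial nucleotide kinase gene next to Rsad2, were not called. Cmpk2 stood at 11.7, 37.7 and 35.7 CPM in WT + PBS and at 67.3, 40.7 and 43.2 CPM in WT + CBE, while its neighbour Rsad2 differed 19.0-fold in the same libraries. In MyTrMaSt none of the 6 was called with CBE, where 3.23% of all tested genes were called higher and 0.658% lower. Of the 6, 4 had a value above 0 and 2 below, against 50.5% of all tested genes above 0. Oas1c stood at 1.38 to 1.84 CPM with PBS and at 2.72 to 5.89 CPM with CBE in MyTrMaSt. Cmpk2 stood at 28.8 to 32.0 CPM with PBS and at 22.6 to 28.5 CPM with CBE there. The interaction was called for Ifit3b only (-2.80 ± 0.44, adjusted p = 0.00502), a value that this filter favours. Its window before the start holds the same 2 core matches as that of Ifit3.

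Genes outside the families at the edges of the clusters gave mostly small values. Of the 10 nearest tested genes on the 2 sides of the 5 clusters, 8 were not called with CBE in WT mice and had log2 fold changes of -0.46 to 0.36. Lipa, the lysosomal acid lipase gene 23220 bases from the Ifit cluster, was called higher (1.01), and Rph3a, 32978 bases from the Oas cluster, was called lower (-1.39).

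Pde12, which encodes a phosphodiesterase that degrades 2′-5′ oligoadenylates, had a log2 fold change of 0.04 ± 0.22 with CBE in WT mice, and Abce1, a ribosome recycling factor, one of -0.18 ± 0.43. Neither was called in any of the comparisons.

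None of 8 interferon ligand genes (Ifna1, Ifna2, Ifna4, Ifna5, Ifnb1, Ifng, Ifnl2 and Ifnl3) was listed in the count table. Of 6 receptor chains, 5 were tested and 1 was called higher in WT + CBE, Il10rb (2.0 ± 0.23), a chain shared by the interferon lambda and interleukin-10 receptors. The type I receptor chains Ifnar1 (0.18 ± 0.18) and Ifnar2 (0.81 ± 0.19, adjusted p = 0.00885) stayed under 2-fold.

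Of 8 signalling genes, 4 were called higher in WT + CBE and none in MyTrMaSt + CBE. Irf7, the transcription factor that amplifies interferon production, stood at 7.15 to 16.2 CPM in WT + PBS, 207 to 308 CPM in WT + CBE, 1.03 to 3.51 CPM in MyTrMaSt + PBS and 1.55 to 6.63 CPM in MyTrMaSt + CBE. Its log2 fold change was 4.73 ± 0.35 in WT and 1.14 ± 0.53 in MyTrMaSt (adjusted p = 0.203). Stat2 and Irf9, whose products act together, rose in WT by 1.65 ± 0.20 and 2.87 ± 0.25 on the log2 scale. In MyTrMaSt the same genes had values of -0.04 ± 0.18 and 0.54 ± 0.24, with adjusted p of 0.924 and 0.185. The interaction was called for Stat2 (-1.70), Irf9 (-2.33) and Irf7 (-3.59). Jak1 (0.29), Tyk2 (0.18) and Irf3 (-0.08) were not called in WT.

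Of 7 inhibitors, 3 were called higher in WT + CBE and 2 in MyTrMaSt + CBE. Usp18, which removes ISG15 and blocks the type I receptor, rose by 4.41 ± 0.38 in WT and had a value of -0.32 ± 0.94 in MyTrMaSt. It had 0 to 7 counts in every library outside WT + CBE and passed the filter through that group alone, so that its place among the 3 is a description. Socs3, a feedback inhibitor of cytokine receptors that also signal through other pathways, rose in both genotypes (2.90 ± 0.56 and 2.29 ± 0.48), as did the phosphatase gene Ptpn6 (2.94 ± 0.29 and 2.73 ± 0.31). MyTrMaSt + CBE replicate 4 stood at 53.0 CPM of Socs3 and the other 4 libraries at 12 to 16.1 CPM, and without it the value was 1.69 ± 0.26 and still called. Socs1 had a value of 0.70 ± 0.42 in WT (adjusted p = 0.327). The interaction was called for none of the 7 inhibitors, among which 2 had an unadjusted p under 0.05.

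**Figure D4:**
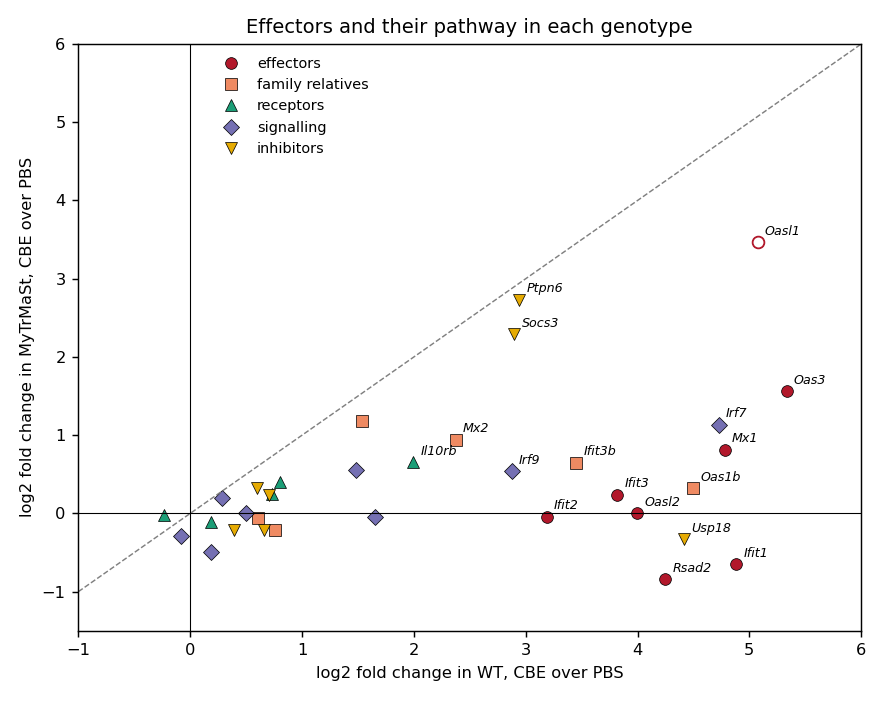
log2 fold change of CBE over PBS in WT (horizontal axis) and in MyTrMaSt mice (vertical axis) for the tested effectors, their relatives and the receptors, signalling genes and inhibitors of the interferon pathway; each symbol is a gene, the dashed line marks equal values and the open circle is Oasl1, whose MyTrMaSt + PBS group had no counts. The effectors lie at 3.19 to 5.33 on the horizontal axis, and Ptpn6 and Socs3 lie near the line.

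The tested genes whose log2 CPM followed the mean of the effectors most closely over the 14 libraries were Ifit3b (Pearson r = 0.984), Irf9 (0.981), Gm4841 (0.979), Rtp4 (0.975) and Ifi35 (0.974). These correlations are set largely by the distance of the 3 WT + CBE libraries from the rest, and over the other 11 libraries they were 0.653 for Ifit3b, 0.678 for Irf9, 0.763 for Rtp4 and 0.413 for Ifi35. Gm4841 had 41 counts in WT + CBE and none in any other group, so that no value exists there.

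Among the markers of brain cell types, those of microglia and astrocytes held genes called higher with CBE in both genotypes, and none was called in either for neurons (5 tested), oligodendrocytes (5), endothelium (3) or choroid plexus (4). The summed level of 8 microglial markers, all listed, was 339 to 499 CPM in WT + PBS, 1556 to 1923 CPM in WT + CBE, 309 to 323 CPM in MyTrMaSt + PBS and 828 to 978 CPM in MyTrMaSt + CBE. C1qa was the largest part of this sum in each group. Its group means were 218, 1290, 131 and 607 CPM, of mean sums of 400, 1757, 316 and 901 CPM in that order. Of the 8, 5 were called higher with CBE in WT and 4 in MyTrMaSt, and none had a called interaction (3 at an unadjusted p under 0.05, the lowest adjusted p being 0.0977 for Ptprc). Without WT + PBS replicate 1, which had the highest microglial sum of its group, 7 of the 8 were called in WT and 3 had a called interaction, with a smaller response in MyTrMaSt. The effector sum divided by the microglial sum was 0.0324 to 0.0925 in WT + PBS, 0.281 to 0.313 in WT + CBE, 0.0368 to 0.0580 in MyTrMaSt + PBS and 0.00969 to 0.0239 in MyTrMaSt + CBE. C1qa weighs most in the divisor. This ratio was higher in every WT + CBE library, and lower in every MyTrMaSt + CBE library, than in any PBS library; no test was made on it. The defining markers P2ry12 (0.05 ± 0.39 in WT, -0.49 ± 0.32 in MyTrMaSt) and Tmem119 (0.78 ± 0.27 and 0.28 ± 0.24) were not called in either genotype. Without WT + PBS replicate 1, at 45.9 CPM the highest of its group, Tmem119 was called in WT (1.02 ± 0.25, adjusted p = 0.00974), and P2ry12 was not (-0.32 ± 0.22).

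**Figure D5:**
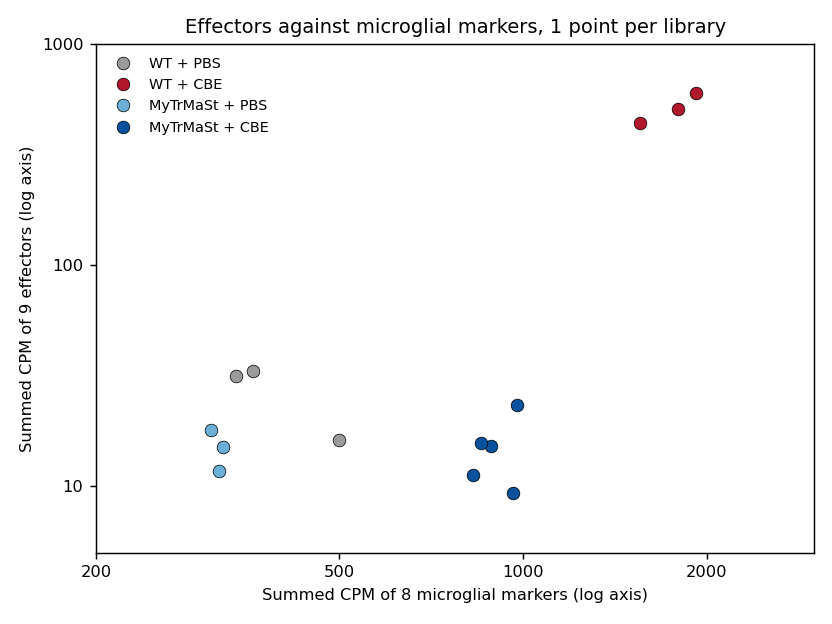
Summed level of the 9 listed effectors (vertical axis, CPM, log) against the summed level of 8 microglial markers (horizontal axis, CPM, log), 1 point per library. C1qa is the largest part of the microglial sum in each group. The MyTrMaSt + CBE libraries lie at 828 to 978 CPM of microglial markers with 9.32 to 23.4 CPM of effectors, and the WT + CBE libraries at 1556 to 1923 CPM with 437 to 602 CPM.

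Of 5 T cell markers only Cd3e was listed (0 to 1.74 CPM), and of 5 neutrophil markers only S100a9 (0 to 2.83 CPM). Of 4 markers of plasmacytoid dendritic cells, which make much type I interferon, 3 were listed and only Bst2, itself an interferon-induced gene, was called in WT (3.66). Of 5 astrocyte markers, 2 were called higher in WT and 1 in MyTrMaSt. The astrocyte sum was 759 to 1007 CPM in WT + PBS, 1907 to 2063 CPM in WT + CBE, 940.0 to 1089 CPM in MyTrMaSt + PBS and 1615 to 1925 CPM in MyTrMaSt + CBE. The sums of 5 oligodendrocyte markers were 16161 to 19412 CPM and 9785 to 12709 CPM in the WT groups with PBS and with CBE, and 15945 to 19120 CPM and 11952 to 16033 CPM in the MyTrMaSt groups, which overlapped. All 5 had a value below 0 in WT at an unadjusted p under 0.05 and a change of less than 2-fold. The part of these cells in the levels of the effectors was not tested.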

How the data were processed

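MARSseq libraries were sequenced on a NextSeq 500 and reads were mapped by the authors to mm10 with hisat, keeping unique mappers. The submitters' processing notes also name cutadapt and HTSeq. Their versions, the annotation, the use of strand and the treatment of molecular identifiers are not given in the sources used here. The deposited values are raw counts per gene. The authors' normalized values and their table of comparisons (fold changes and p-values) were not used.

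Counts were filtered with filterByExpr (minimum count 10), scaled by TMM and fitted with edgeR 4.0.16 (R 4.3.3; quasi-likelihood test, 4 group means, all 14 libraries), with Benjamini-Hochberg adjustment over 11852 genes. A gene was called at 2-fold or more and an adjusted p under 0.05, and an interaction at an adjusted p under 0.05 alone. DESeq2 1.42.0 and limma 3.58.1 were alternatives. CPM were computed from the TMM-scaled library sizes. Ratios of pooled counts have exact 95% binomial intervals. No label says that mice shared litters, and p-values measure the spread between these mice. No pair of libraries of a group agreed within counting noise (chi-square per degree of freedom 2.16 to 17.9). The fit was tested on simulated counts.

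The 10 genes, their relatives (Oas1b to Oas1h, Ifit1bl1, Ifit1bl2, Ifit3b, Mx2, Cmpk2), the pathway lists and the marker lists were chosen with earlier results of these data known. Some genes of the pathway lists are not reported here. All members were named whatever their values, and the genes most alike are the 5 with the highest Pearson r of log2(CPM + 0.5) with the members' mean.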

Additional observations from a re-analysis of the deposited data

Results flagged for a closer look

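Mx1 in MyTrMaSt + CBE had a library far from the others of its group: replicate 5 stood at 1.56 CPM (4 counts), and the other 4 libraries at 0 to 0.388 CPM (0 or 1 count). By design the criterion marks about 1 in 20 groups of normally distributed values by chance, and counts of 0, 1 and 4 are not such values.

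The CBE response differed between the genotypes, by the test of the interaction, for 5 effectors. The log2 interaction was -4.00 for Oasl2, -5.53 for Ifit1, -3.23 for Ifit2, -3.58 for Ifit3 and -5.08 for Rsad2, each smaller in MyTrMaSt than in WT mice. The adjusted p of Oasl2 was 0.0406, and its call was lost in 9 of 14 leave-outs of 1 library. With Xist as a covariate Ifit1 alone was still called, with Ifit2 and Rsad2 at an adjusted p of 0.0592 and Ifit3 at 0.174. Without MyTrMaSt + PBS replicate 3 Ifit2 alone was called, and Rsad2 was also lost with thinned counts (adjusted p = 0.201). With the covariate the interactions of the 4 that lost their call were -2.74 to -4.97. Rsad2 had 0 to 4 counts in every library outside WT + CBE and entered the test through that group alone, and Ifit1, with 2 of the 3 libraries that the filter asks for outside WT + CBE, entered only with that group.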

How the results depend on the processing

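The 8 calls in WT + CBE versus WT + PBS and the 8 in MyTrMaSt + CBE versus WT + CBE were made under each alternative run, and 9 without the filter on low counts, where Oas2 entered. None was called in MyTrMaSt + CBE versus MyTrMaSt + PBS under any of them. In MyTrMaSt + PBS versus WT + PBS the single call (Oasl2) became 3 with DESeq2 and 0 with limma voom, with Xist as a covariate, in the test against 2-fold, with the libraries of the 2 groups alone and, chosen after seeing the data, without WT + PBS replicate 1 and with the Xist covariate together. Leaving out each library in turn gave 0 to 1 there. Over all genes, that comparison had 114 calls with DESeq2, 15 with limma voom and 4 with the 2 groups alone. It had 3 with the Xist covariate, 3 in the test against 2-fold and 18 without WT + PBS replicate 1 and with the covariate together. The 5 interaction calls became 1 with the Xist covariate and 3 with thinned counts, where Oasl2 and Rsad2 were lost (leave-one-out range 1 to 5), while over all genes the 58 interaction calls became 133 with DESeq2, 32 with the block, 27 with thinned counts and 9 with the covariate. The cause of these changes was not tested.

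Replicate numbers are shared between groups, and no label says that they pair the mice. Of 18 pairs of same-numbered libraries 3 correlated above 0.1 (range -0.184 to 0.173), and 7 of 12 libraries correlated best with their own number. These values cannot settle whether the numbers pair the mice. With the number as a block, 8, 0, 8, 0 and 4 effectors were called in the 5 comparisons, in the order WT with CBE, MyTrMaSt with CBE, genotypes with CBE, genotypes with PBS and interaction.

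Signs changed only for values that were not called. In MyTrMaSt + CBE versus MyTrMaSt + PBS, Oasl2 turned to -0.0029 with RLE factors, -0.0035 with DESeq2, -0.18 with limma voom, -0.0092 with the Xist covariate and -0.84 with the block, Ifit2 to 0.046 with that covariate, 0.047 without WT + PBS replicate 1 as well and 0.0082 with the block, Ifit3 to -0.13 with the block and -0.20 with thinned counts, and Mx1 to -0.56 with the block. In MyTrMaSt + PBS versus WT + PBS, Ifit2 turned to -0.20 with the Xist covariate and -0.41 without WT + PBS replicate 1 as well. Leaving out libraries gave ranges that cross 0 with CBE in MyTrMaSt for Oasl2 (-0.47 to 0.46), Ifit1 (-1.09 to 0.12), Ifit2 (-0.20 to 0.16), Ifit3 (-0.16 to 0.52) and Mx1 (-0.77 to 1.21), and between the PBS groups for Oas3 (-2.74 to 1.63) and Rsad2 (-0.0036 to 0.81). Depth limits Oas2, Oas3, Mx1, Oasl1 and Rsad2, which had 0 to 5 counts per library outside WT + CBE.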

Other observations

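Gm4841 was counted in WT + CBE alone: 41 counts over the 3 libraries, at 4.21 to 7.81 CPM, and 0 in the other 11. Its log2 fold change in WT was called (adjusted p = 0.00150) but its size depends on the prior count. Gm4841 passed the filter through WT + CBE alone and was picked for following the effectors, so that its call is a description.

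Irf7, which induces interferon genes, differed between the genotypes with PBS by a log2 difference of -2.40 ± 0.51 (adjusted p = 0.0672), and Usp18 by -2.31 ± 0.73 (adjusted p = 0.156). For each, all 3 MyTrMaSt + PBS libraries lay below all 3 WT + PBS libraries, which held for 10.1% of all tested genes. They were 1 of the 8 signalling genes and 1 of the 7 inhibitors. Usp18 passed the filter through WT + CBE alone, and sex and genotype cannot be told apart between the PBS groups. Neither Irf7 nor Usp18 was called, and the effector called in that comparison was Oasl2.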
